A study of Mus musculus with 4 samples.

Results

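The collagen chain genes were taken as every gene of the deposited matrices whose symbol reads Col, a number, the letter a and a number. The rule found 44 genes among 31053 listed, and 40 of them had at least 20 unique molecular identifiers (UMIs, the tags that mark single captured transcripts) over the 4 libraries and were treated as measured. By the structure of their proteins the measured genes comprised 10 of 11 fibril-forming chains, 7 of 9 fibril-associated chains, 6 of 6 type IV chains, 6 of 6 type VI chains, 2 of 3 short-chain network chains, 2 of 2 multiplexins, 4 of 4 transmembrane chains and 3 of 3 other chains. The 4 chains below the limit were Col22a1 with 9 UMIs, Col2a1 with 7, Col9a1 with 6 and Col10a1 with 2.

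The cells were the stromal vascular fraction of mouse inguinal white fat, the cells other than mature adipocytes, profiled by single-cell RNA sequencing. Control mice were C57BL/6 animals, pooled from 7 mice. The other group, iAdFASNKO, was pooled from 8 mice, and its name stands for an induced adipocyte knockout of Fasn, the fatty acid synthase gene. Each pool was divided by a lineage selection into a Lin+ and a Lin- fraction, which gave 4 libraries, 1 for each genotype and fraction. The sources used here do not give the driver of the deletion, how it was induced, the age of the mice or the antibodies of the lineage selection. Genotype was assigned to the matrices by their names alone, so every genotype direction below rests on those names. With 1 library per group there was no replicate, so no test between groups was possible. Every interval below is an exact 95% counting interval that covers counting error only, and mice, preparation and genotype cannot be told apart.

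Collagens are built from 3 chains wound around each other, and each gene encodes 1 kind of chain. Fibril-forming collagens give tissue its tensile strength, type IV collagen forms the sheet of basement membranes, type VI collagen forms beaded filaments beside cells, and the fibril-associated collagens coat fibrils without forming them. In white fat the stromal progenitors, fibroblast-like cells that can become adipocytes, lay down most of this matrix, and adipocytes are each wrapped in a basement membrane.

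The promoters of 4 chains are shown because these chains carry the main patterns below. Col1a2 and Col3a1 are the most abundant chains, Col16a1 was higher in iAdFASNKO progenitors of both fractions, and Col15a1 separated the progenitor subsets. Each sequence is the 250 bases before the RefSeq start of the gene in build GRCm38.p6, on the plus strand and 5′ to 3′, and capitals mark matches to 3 promoter words searched on both strands. The words were CCAAT for the CCAAT box, GGGCGG for the GC box and TATAAA for the TATA box.

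Col1a2, chr6:4505368-4505617: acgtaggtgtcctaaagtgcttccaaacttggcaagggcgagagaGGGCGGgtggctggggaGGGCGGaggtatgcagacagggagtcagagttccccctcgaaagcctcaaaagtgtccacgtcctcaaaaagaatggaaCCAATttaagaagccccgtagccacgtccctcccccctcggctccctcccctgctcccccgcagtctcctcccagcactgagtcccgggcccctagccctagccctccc

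Col3a1, chr1:45311288-45311537: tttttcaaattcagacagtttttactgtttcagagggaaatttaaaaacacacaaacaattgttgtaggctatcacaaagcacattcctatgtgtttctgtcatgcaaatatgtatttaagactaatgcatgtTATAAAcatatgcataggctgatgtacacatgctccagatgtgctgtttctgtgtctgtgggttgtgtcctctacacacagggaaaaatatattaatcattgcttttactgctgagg

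Col16a1, chr4:130047590-130047839: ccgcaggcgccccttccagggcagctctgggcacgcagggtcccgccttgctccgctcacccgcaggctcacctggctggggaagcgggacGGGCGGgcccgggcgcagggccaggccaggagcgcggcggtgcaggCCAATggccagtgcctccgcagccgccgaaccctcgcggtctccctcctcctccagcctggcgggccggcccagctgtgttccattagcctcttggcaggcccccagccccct

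Col15a1, chr4:47207762-47208011: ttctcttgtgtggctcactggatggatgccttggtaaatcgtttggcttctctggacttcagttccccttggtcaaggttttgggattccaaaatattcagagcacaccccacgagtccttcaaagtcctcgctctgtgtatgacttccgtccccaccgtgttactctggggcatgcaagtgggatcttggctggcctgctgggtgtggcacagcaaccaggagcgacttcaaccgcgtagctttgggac

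The Col1a2 window held GGGCGG 205 and 188 bases and CCAAT 109 bases before the start, the Col16a1 window held GGGCGG at 159 and CCAAT at 113, the Col3a1 window held TATAAA at 117, and the Col15a1 window held none of the 3. Over 32851 RefSeq promoter windows of the same length, CCAAT was found in 33.8%, GGGCGG in 32.7% and TATAAA in 12.4%. Among the 38 windows of collagen chains they were found in 13, 22 and 5. A match is a description of these letters and was not tied to a measurement here.

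The libraries held 18336 barcodes in all, and 2888 to 4425 cells per library remained after filtering. Total UMIs per library ran from 21622291 to 33016494. Any pair of libraries shared between 109 and 170 barcodes. The genotype comparisons of progenitor-like cells and of Lin- mural-like and endothelial-like cells were repeated without them. So was the collagen share of Lin- progenitor-like cells, while the other results were not repeated in this way. Cells were assigned to a class by marker genes that included no collagen, which gave 1740 progenitor-like cells in Lin+ control, 1701 in Lin+ iAdFASNKO, 2211 in Lin- control and 2281 in Lin- iAdFASNKO. All 8 progenitor markers were detected in 82.7% to 99.7% of these cells, and none of the 10 genes with the largest excess in them was a marker of another class. The progenitor-like cells of the iAdFASNKO libraries were shallower, with median UMIs of 5620 against 8203 in Lin+ and 5254 against 10320 in Lin-. Their median mitochondrial share was also lower, at 1.82% against 3.45% in Lin+ and 1.41% against 3.14% in Lin-. Fasn stood at 40.8 CPM (counts scaled to a common total) in Lin+ control, 24.6 in Lin+ iAdFASNKO, 44.5 in Lin- control and 28.8 in Lin- iAdFASNKO progenitor-like cells, which are not the adipocytes targeted, so these values do not check the deletion.

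Collagen transcripts lay mostly in the progenitor-like cells. Collagen chains made up 4.14% of all UMIs of progenitor-like cells in Lin+ control, 3.38% in Lin+ iAdFASNKO, 5.01% in Lin- control and 5.71% in Lin- iAdFASNKO. Mural-like cells, the smooth muscle and pericyte cells of vessel walls, gave 0.259% in Lin- control and 0.268% in Lin- iAdFASNKO. Schwann-like cells, the glia of peripheral nerve, gave 0.4005% and 0.508% in the same libraries. Endothelial-like cells gave 0.132% in Lin+ iAdFASNKO, 0.112% in Lin- control and 0.062% in Lin- iAdFASNKO, while the median over single cells was 0.0525% and 0.0479% in the Lin- pair. T-cell-like and B-cell-like cells, which are not known to make fibrillar collagen, marked the level of free RNA in the droplets. For Lin+ T-cell-like cells the Col3a1 level was 102 CPM (control) and 74.3 CPM (iAdFASNKO), and for Lin+ B-cell-like cells it was 179 and 92.5 CPM. The few T-cell-like cells of Lin- gave 126 CPM from 10 UMIs in control and 128 CPM from 17 UMIs in iAdFASNKO. The mural-like Col3a1 of 298 and 237 CPM was therefore within a few-fold of that level. Low values of the fibrillar chains outside progenitor-like and Schwann-like cells are not read here as expression. The part of free RNA in them was not tested. Col5a2, a type V chain, stood at 92.0 CPM from 22 UMIs in Lin+ iAdFASNKO endothelial-like cells. The UMI ratio of Col5a1 over Col5a2 was 0.136 there. In the same library it was 0.870 in progenitor-like, 0.968 in B-cell-like and 0.647 in T-cell-like cells.

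**Figure D1:**
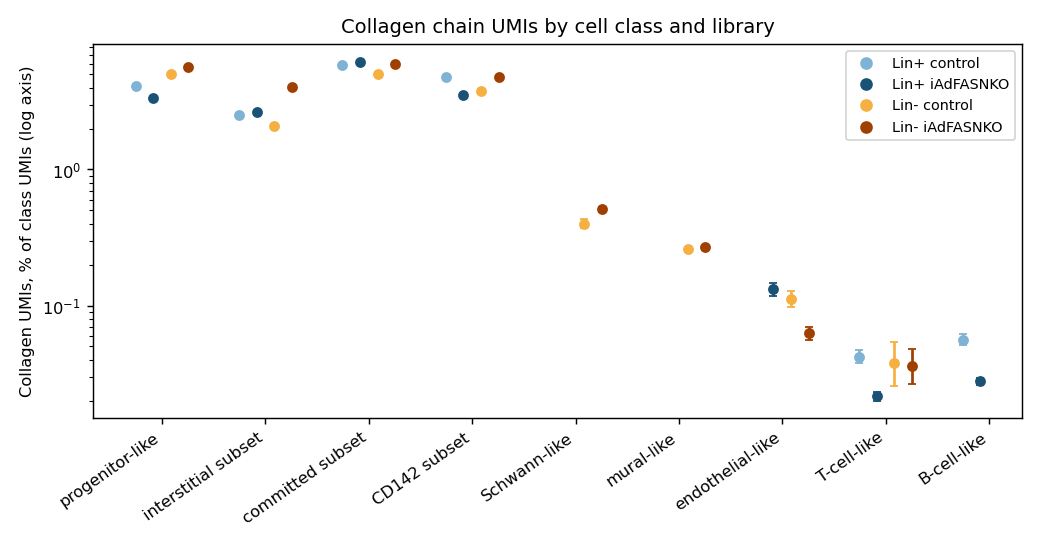
Percent of UMIs that fall on collagen chains, by cell class and library and for 3 subsets of the progenitor-like cells, on a log axis, with exact binomial intervals that cover counting error only. Progenitor-like cells stand between 3.38% and 5.71%, Schwann-like cells reach 0.508%, and T-cell-like and B-cell-like cells lie lowest.

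A few fibril-forming chains dominated the progenitor-like cells. Col3a1, the type III chain of fine reticular fibrils, was the most abundant with 918627 UMIs over all barcodes, ahead of Col1a2 with 674277 and Col1a1 with 504135, the chains of type I collagen. These 3 chains held 69.5% of the 3019293 collagen UMIs, and the 10 most abundant held 94.6%. Each UMI tags the 3′ end of 1 transcript, so levels of different chains are compared in CPM without division by length.

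In progenitor-like cells Col3a1 stood at 12131 CPM in Lin+ control, 11175 in Lin+ iAdFASNKO, 15764 in Lin- control and 17083 in Lin- iAdFASNKO. Col1a2 stood at 11231, 8175, 10288 and 11820 CPM in the same order of libraries. Col1a1 stood at 8277, 6645, 7109 and 9412 CPM. Within every library the order was Col3a1, Col1a2, Col1a1. In all 3 chains the Lin+ iAdFASNKO library was the lowest, and the Lin- iAdFASNKO library was the highest. Type I collagen is a trimer of 2 chains from Col1a1 and 1 from Col1a2, while the UMI ratio of Col1a1 over Col1a2 was 0.737, 0.813, 0.691 and 0.796, below 1 in all 4 libraries.

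The type V chains, which take part in starting a fibril and in setting its width, came next among the fibril-forming group. Col5a2 stood at 939.7 CPM in Lin+ control, 873 in Lin+ iAdFASNKO, 1094 in Lin- control and 1465 in Lin- iAdFASNKO. Col5a1 stood at 935, 759, 947 and 1019 CPM. Col5a3, the less widespread chain of this type, stood at 832, 672, 1772 and 1904 CPM, and its level separated the fractions rather than the genotypes. Col5a3 over Col5a1 was 0.890 and 0.886 in the Lin+ libraries and 1.87 in both Lin- libraries. Of the low fibril-forming chains, Col27a1 ran from 32.0 to 75.2 CPM.

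Type IV and type VI chains made up most of the rest. Col4a1 stood at 1413 CPM in Lin+ control, 1016 in Lin+ iAdFASNKO, 3172 in Lin- control and 3780 in Lin- iAdFASNKO. Col4a2, its partner in the ubiquitous basement membrane trimer, stood at 655, 434, 1499 and 1502 CPM. Both were higher in each Lin- library than in either Lin+ library. Col6a3, the long chain of type VI collagen whose cleaved end is known as endotrophin in fat, stood at 1475, 1179, 2697 and 3411 CPM. The other main type VI chains were Col6a1, at 1264, 915, 2121 and 1990.2 CPM, and Col6a2, at 1162, 671, 2019.7 and 2162 CPM. As with type IV, the Lin- libraries were the higher pair for each of the 3 type VI chains.

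**Figure D2:**
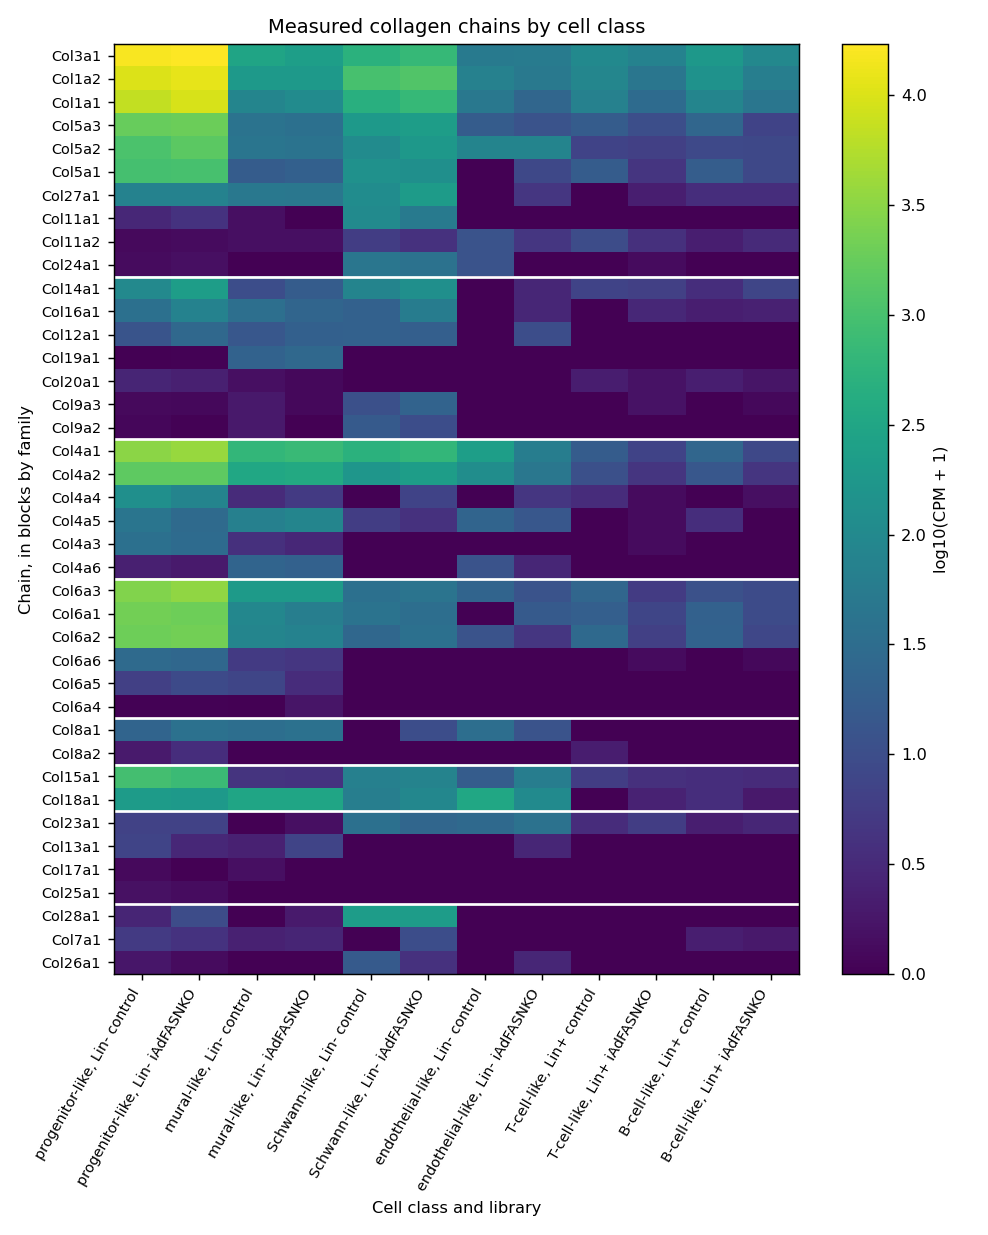
Heat map of the measured collagen chains, in blocks by family, with colour for log10(CPM + 1) in cell classes of the Lin- libraries and, for T-cell-like and B-cell-like cells, of the Lin+ libraries. Col3a1, Col1a2, Col1a1, Col4a1 and the 3 main type VI chains are highest in progenitor-like cells, while Col19a1 appears in mural-like cells and Col28a1 in Schwann-like cells.

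Ordered by class, 14 chains had their highest level in progenitor-like cells by at least 2-fold over the next class in every library that held both, led by Col3a1, Col1a2 and Col1a1. The lowest fold among all 14 was 2.73, for Col4a3 in Lin+ control. It was taken against 1 UMI in natural-killer-like cells, with an interval of 0.484 to 108. The ranking was not made over all genes, so the number of chains leading any class is not read as a trait of collagen chains. Mural-like cells led for Col19a1, a fibril-associated chain of basement membrane zones. It stood at 20.1 CPM in Lin- control and 26.0 in Lin- iAdFASNKO mural-like cells, from 43 and 104 UMIs, against 0 and 0.0773 CPM in progenitor-like cells. After thinning every cell to 2000 UMIs it was detected in 4.69% of control and 4.58% of iAdFASNKO mural-like cells. In Lin- control progenitor-like cells 0 of 2041 thinned cells held a UMI of it, and that count allows up to 0.147% of cells with a UMI, which is no limit on cells that express it.

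Schwann-like cells led for 4 chains. Col28a1, the type XXVIII chain known from the sheaths of peripheral nerve, stood at 219 CPM in Lin- control and 216 in Lin- iAdFASNKO Schwann-like cells. In progenitor-like cells Col28a1 stood at 1.75 and 8.66 CPM in those libraries. Col11a1, a type XI chain best known from cartilage, stood at 105 and 53.9 CPM, from 21 and 18 UMIs. Col24a1, a low fibril-forming chain, stood at 44.8 and 38.9 CPM, from 9 and 13 UMIs, and Col9a2 led from 3 UMIs in each library. The Schwann-like cells also held 1006 and 1219 CPM of Col1a2, above the level in any immune class. In neutrophil-like cells Col11a2 led in both Lin+ libraries with 2 and 1 UMIs, too few to rank a class. No chain led in endothelial-like cells in every one of their 3 libraries. In Lin+ iAdFASNKO, Col18a1 was highest there at 234 CPM, from 56 UMIs, against 87.5 in progenitor-like cells. Col8a1 was also highest there, at 142 CPM from 34 UMIs against 2.12. That library held only 8 mural-like cells, too few to be ranked.

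The mix of families also differed between classes. Fibril-forming chains held 83.0% of collagen UMIs in Lin+ control, 83.9% in Lin+ iAdFASNKO, 73.9% in Lin- control and 74.9% in Lin- iAdFASNKO progenitor-like cells. In mural-like cells they held 28.0% and 25.3%, and type IV chains held 40.9% and 45.5%, against 9.73% and 9.48% in Lin- progenitor-like cells. In endothelial-like cells the multiplexins Col15a1 and Col18a1, which sit at basement membranes and of which Col18a1 is the source of endostatin, held 31.1% in Lin+ iAdFASNKO, 31.1% in Lin- control and 26.8% in Lin- iAdFASNKO. The Schwann-like mix was fibril-forming, at 66.8% and 67.2%.

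The chains of mural-like cells were compared with those of progenitor-like cells of the same library by a rule of size. A chain was counted as higher or lower when it had at least 20 UMIs in the 2 groups together, a CPM ratio that differed from 1 by 1.5-fold or more in either direction, and a counting interval that left out 1. In Lin- control 32 chains could be compared, 3 were higher in mural-like cells against 22.5% of all genes, and 19 were lower against 22.6%. In Lin- iAdFASNKO 31 could be compared, 5 were higher against 20.9% and 23 were lower against 29.4%. Col19a1, Col4a5 and Col4a6 were higher in both, and 18 chains were lower in both. Calls shared by several comparisons, here and below, were not counted over all genes. Their number is therefore not read as a trait of the collagen chains or of the genes that process collagen. Col4a5 stood at 68.3 and 83.4 CPM in mural-like cells against 42.7 and 28.1 in progenitor-like cells, and Col4a6 at 22.4 and 19.98 against 1.39 and 1.01. These 2 chains together form the type IV trimer known from smooth muscle.

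The 6 type IV genes lie in 3 head-to-head pairs, and the ratio of the 2 members is given for each pair. Col4a1 and Col4a2 start within 21 bases of each other on chromosome 8 with overlapping heads, Col4a3 and Col4a4 start 72 bases apart on chromosome 1, and Col4a5 and Col4a6 start 1309 bases apart on chromosome X, by the GENCODE annotation of GRCm38. The UMI ratio of Col4a1 over Col4a2 was 2.16 in Lin+ control, 2.34 in Lin+ iAdFASNKO, 2.12 in Lin- control and 2.52 in Lin- iAdFASNKO progenitor-like cells. It was 1.90 and 1.95 in mural-like and 3.12 and 2.85 in Schwann-like cells. Over these libraries and classes Col4a1 ran from 513 to 3780 CPM and the ratio from 1.90 to 3.12. The CD142 subset of the progenitors, described below, lay at 1.78 in Lin+ control, 2.01 in Lin+ iAdFASNKO, 1.51 in Lin- control, with an interval of 1.33 to 1.72, and 1.93 in Lin- iAdFASNKO. In endothelial-like cells, with 22 to 43 UMIs of each chain in Lin-, it was 1.95 in control and 1.32 in iAdFASNKO. Col4a6 over Col4a5 was 0.0347, 0.0174, 0.0326 and 0.0358 in progenitor-like cells and 0.329 and 0.240 in mural-like cells. Col4a3 over Col4a4, the chains best known from kidney, was 0.186, 0.215, 0.270 and 0.364 in progenitor-like cells, with Col4a4 the higher member at 76.4, 54.7, 129 and 79.6 CPM.

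**Figure D3:**
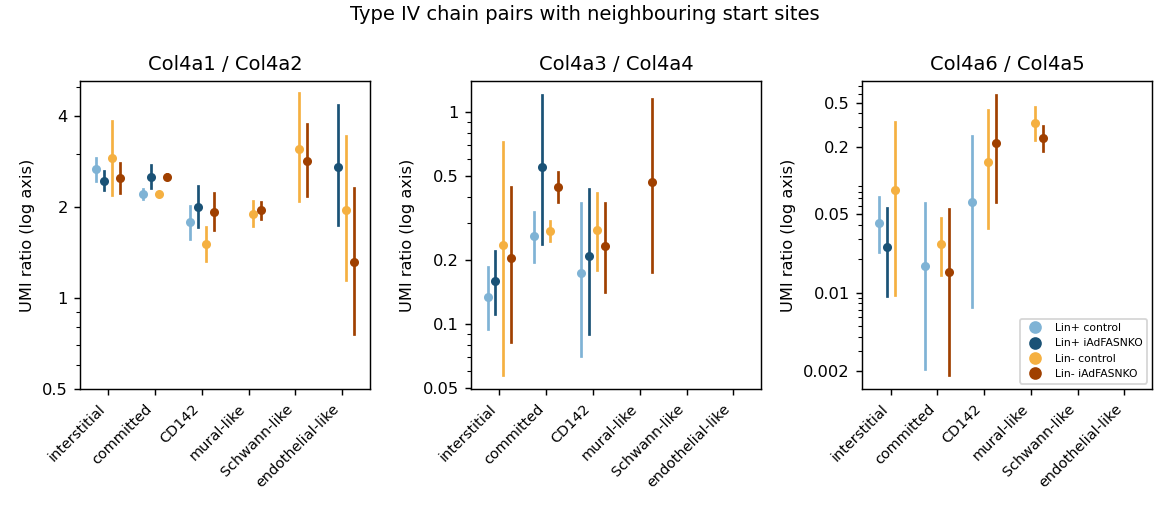
UMI ratio of the 2 members of each head-to-head type IV pair in 3 progenitor subsets and 3 other classes, by library, on log axes, with exact intervals that cover counting error only; a class is shown where the pair has at least 20 UMIs and the first member is detected. Col4a1 over Col4a2 lies between 1.51 and 3.12 outside endothelial-like cells. Col4a6 over Col4a5 lies at 0.329 and 0.240 in mural-like cells, and the wide intervals of the CD142 subset, from 2 to 5 UMIs of Col4a6, reach those values.

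Progenitor-like cells were divided by markers into an interstitial subset (Pi16, Dpp4 and others, the least committed cells), a committed subset (Icam1, Fabp4, Pparg and others, nearer to adipocytes) and a CD142 subset (F3 and others). Of the progenitor-like cells 2757 joined no subset. They enter no value of a subset, but form a further group where subsets are weighted to the mix of control. The multiplexins, the main type IV and type VI chains and Col5a3 were higher in the committed subset and the fibril-associated Col14a1 in the interstitial subset, in every library. Committed cells numbered 274 in Lin+ control, 72 in Lin+ iAdFASNKO, 1173 in Lin- control and 1148 in Lin- iAdFASNKO, and interstitial cells numbered 727, 1065, 55 and 136.

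In Lin+ control 23 chains could be compared between these subsets, 16 were higher in committed cells against 9.82% of all genes, and 4 were lower against 14.4%. In Lin+ iAdFASNKO the counts were 15 higher against 6.96% and 2 lower against 8.85%, of 23. In Lin- control they were 16 higher against 6.42% and 3 lower against 9.47%, of 27. In Lin- iAdFASNKO they were 11 higher against 7.34% and 4 lower against 10.5%, of 25. The median log2 ratio of the chains was 1.11, 1.10, 1.47 and 0.56 in that order. The 9 chains higher in all 4 libraries were Col15a1, Col18a1, Col4a1, Col4a2, Col4a3, Col5a3, Col6a1, Col6a2 and Col6a3. Col14a1 was the single chain lower in all 4. The share of all genes that were higher or lower in all 4 was not taken.

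Col15a1 separated the subsets most widely in the Lin+ fraction. It went from 25.6 CPM in interstitial to 928 in committed cells of Lin+ control, a ratio of 36.3 with an interval of 30.8 to 43.0. The values were 35.1 and 943 CPM in Lin+ iAdFASNKO, 148 and 1070 CPM in Lin- control, and 133 and 938 CPM in Lin- iAdFASNKO. The committed level stayed between 928 and 1070 CPM in the 4 libraries, while the interstitial level was higher in the 2 Lin- libraries. Col4a1 stood at 303 and 3395 CPM in interstitial and committed cells of Lin+ control, 377 and 4376 in Lin+ iAdFASNKO, 441 and 3496 in Lin- control, and 1351 and 4838 in Lin- iAdFASNKO. Its interstitial level in Lin- iAdFASNKO, from 136 cells, stood apart from the other 3. Col14a1, which binds fibril surfaces, stood at 523 and 52.0 CPM in interstitial and committed cells of Lin+ control, 907 and 71.1 in Lin+ iAdFASNKO, 364 and 42.0 in Lin- control, and 564 and 89.7 in Lin- iAdFASNKO. Its interval for the committed over interstitial ratio was 0.0828 to 0.119 in Lin+ control and 0.141 to 0.180 in Lin- iAdFASNKO.

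**Figure D4:**
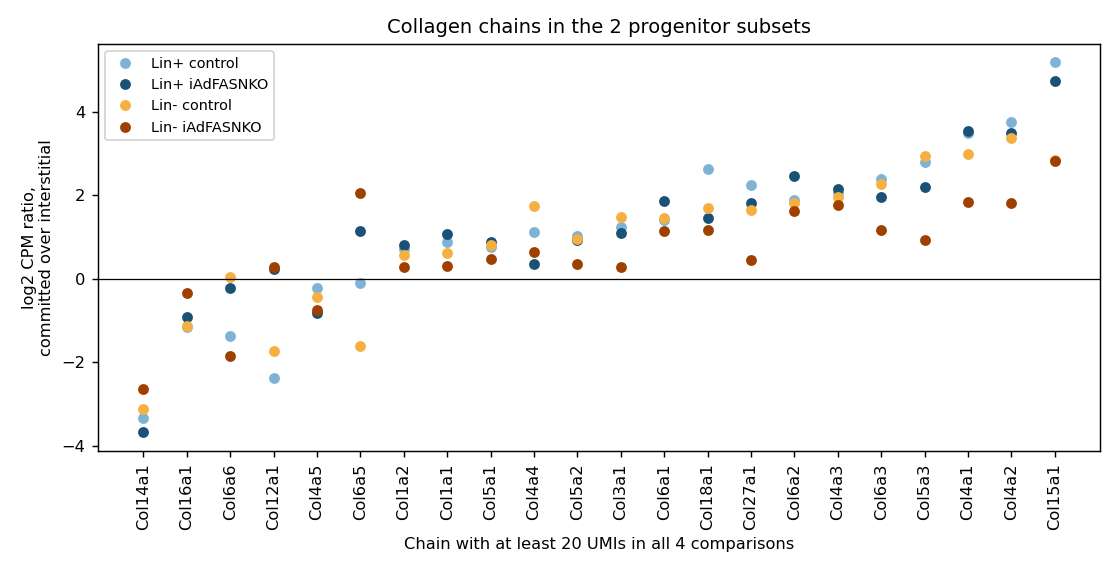
Log2 CPM ratio, committed over interstitial progenitors, of the chains that could be compared in all 4 libraries, with 1 point per library. Col15a1, Col4a1, Col4a2, Col5a3 and Col6a1 to Col6a3 lie above 0 and Col14a1 and Col16a1 lie below 0 in all 4 libraries.

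The CD142 subset, named for tissue factor, was richer in the type I collagen chains than the interstitial subset. CD142 and committed cells were not compared by the size rule. CD142 cells were compared with interstitial cells in 23 chains of Lin+ control, with 11 higher against 7.91% of all genes and 3 lower against 11.6%. The counts were 9 higher against 7.61% and 5 lower against 10.9% of 23 in Lin+ iAdFASNKO, 11 higher against 10.5% and 0 lower against 9.86% of 20 in Lin- control, and 6 higher against 10.6% and 2 lower against 12.7% of 22 in Lin- iAdFASNKO. Col15a1, Col1a1 and Col1a2 were higher in all 4. Col1a1 stood at 5066 and 13923 CPM in interstitial and CD142 cells of Lin+ control, 4877 and 9766 in Lin+ iAdFASNKO, 4011 and 9665 in Lin- control, and 6901 and 11761 in Lin- iAdFASNKO. The UMI ratio of Col3a1 over Col1a1 was 0.885, 0.868, 0.947 and 0.971 in CD142 cells, below 1 in every library. In interstitial cells it was 1.43, 1.89, 1.41 and 2.09, and in committed cells 1.85, 1.91, 2.59 and 2.05.

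Col5a3 over Col5a1 also followed the subsets. The ratio was 0.401 in Lin+ control, 0.638 in Lin+ iAdFASNKO, 0.477 in Lin- control and 1.54 in Lin- iAdFASNKO interstitial cells, and 1.64, 1.59, 2.11 and 2.10 in committed cells. Every committed value was above every interstitial value, and the Lin- iAdFASNKO interstitial cells came nearest. Their interval of 1.39 to 1.70 overlapped that of Lin+ iAdFASNKO committed cells, 1.42 to 1.78. In CD142 cells the ratio was 0.371, 0.416, 0.534 and 0.482 in the same order of libraries.

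The fractions of one genotype were compared next, over all progenitor-like cells. In control 31 chains could be compared, 4 were higher in Lin+ against 11.7% of all genes and 15 were lower against 9.39%, with a median log2 ratio of -0.63. In iAdFASNKO 30 could be compared, 2 were higher against 17.9% and 18 were lower against 10%, with a median of -1.00. Col14a1 and Col16a1 were higher in Lin+ of both genotypes, and 14 chains, the same type IV, VI and multiplexin chains among them, were lower in both. The progenitors of both fractions held each subset, but in a different mix. The summed interstitial markers were 2922 CPM in Lin+ control and 4239.9 in Lin+ iAdFASNKO against 234 and 518 in Lin-. The committed markers were 2480.5 and 1569.8 against 7069.9 and 5811. The part of this mix in the ratios between fractions was not tested.

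Within a subset the median lay close to 0 in 3 of 4 comparisons of the fractions. Among interstitial cells of control, 23 chains gave 0 higher against 3.69% and 1 lower against 4.12%, with a median log2 ratio of 0.03. Among committed cells of control, 27 chains gave 1 higher against 4.64% and 4 lower against 4.55%, with a median of 0.12. Among committed cells of iAdFASNKO, 25 chains gave 1 higher against 6.28% and 0 lower against 2.94%, with a median of -0.06. Interstitial cells of iAdFASNKO gave 2 higher against 10.9% and 11 lower against 7.1% of 24 chains, with a median of -0.60. Few cells stand behind some of these groups, with 55 and 136 interstitial cells of Lin- control and Lin- iAdFASNKO, and 274 and 72 committed cells of Lin+ control and Lin+ iAdFASNKO.

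Between genotypes, the fibril-associated chains Col14a1 and Col16a1 were higher and the type IV chain Col4a5 lower in iAdFASNKO progenitor-like cells of both fractions, while the abundant chains moved by less than the size rule in Lin-. In the Lin- fraction 32 chains could be compared. Of these 7 were higher in iAdFASNKO against 8.87% of all genes, and 3 were lower against 5.86%. The median log2 ratio of the chains was 0.10, against 0.03 over all genes, and 20 of the 32 ratios were above 1.

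Col14a1 stood at 97.2 CPM in Lin- control, from 2163 UMIs in 472 cells, and at 229 in Lin- iAdFASNKO, from 2958 UMIs in 717 cells. The ratio was 2.35 with an interval of 2.23 to 2.49. After thinning to 2000 UMIs it was detected in 9.80% of control and 21.2% of iAdFASNKO cells, and the unthinned shares were 21.3% and 31.4%. B-cell-like cells of the Lin+ libraries, which should lack it, gave 0.490% and 1.501% after the same thinning. Col16a1, another fibril-associated chain, stood at 35.8 and 73.1 CPM in the same pair of libraries, a ratio of 2.04 with an interval of 1.86 to 2.25. Its thinned share of cells was 5.98% in control and 12.4% in iAdFASNKO, against 0 of 204 and 0.322% in the Lin+ B-cell-like cells. Col28a1 stood at 1.75 and 8.66 CPM, from 39 and 112 UMIs, a ratio of 4.94 with an interval of 3.41 to 7.31. This is the chain that led in Schwann-like cells, and the part of other cells' RNA in it was not tested.

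The remaining 4 higher chains rested on few cells or few counts. Col12a1, a fibril-associated chain of loaded tissue, stood at 11.6 and 25.7 CPM, a ratio of 2.21, but 80 of the 332 iAdFASNKO UMIs came from 1 cell, and the ratio was 1.77 without the top cell of each library. Col8a1, a short-chain network collagen of vessel walls, stood at 21.8 and 37.3 CPM, a ratio of 1.71, with 118 of its 482 iAdFASNKO UMIs in 1 cell. Its log2 ratio of 0.77 became 0.53 without the top cells. Col8a2 stood at 0.988 and 2.63 CPM from 22 and 34 UMIs, and Col11a1 at 1.98 and 3.17 CPM from 44 and 41 UMIs, with an interval for its ratio of 1.02 to 2.51. Without the barcodes that libraries share, 5 chains were higher against 8.4% of all genes and 3 lower against 6.15%. Col8a2, Col12a1 and Col8a1 were not among these 5. Among cells of 4000 to 10000 UMIs, 3 were higher against 4.49% and 4 lower against 8.46%. There the log2 ratios of Col12a1 and Col8a1 turned to -0.38 and -0.36.

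The 3 lower chains in Lin- were Col4a4, Col4a5 and Col13a1. Col4a4 stood at 129 CPM in control against 79.6 in iAdFASNKO, a ratio of 0.616 with an interval of 0.573 to 0.661. Col4a5 stood at 42.7 and 28.1 CPM, a ratio of 0.657 with an interval of 0.581 to 0.742. Col13a1, a transmembrane collagen known from the neuromuscular junction, stood at 6.29 and 2.01 CPM, from 140 and 26 UMIs, a ratio of 0.320. Of the 10 most abundant chains none passed the size rule here. Their ratios ran from 0.938 for Col6a1 to 1.34 for Col5a2, with Col1a1 at 1.32 and Col3a1 at 1.08. The summed progenitor markers were 57422 CPM in control and 35979 in iAdFASNKO, and the depth of the cells differed as given above. The part of either in these ratios was not tested apart from the depth window.

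**Figure D5:**
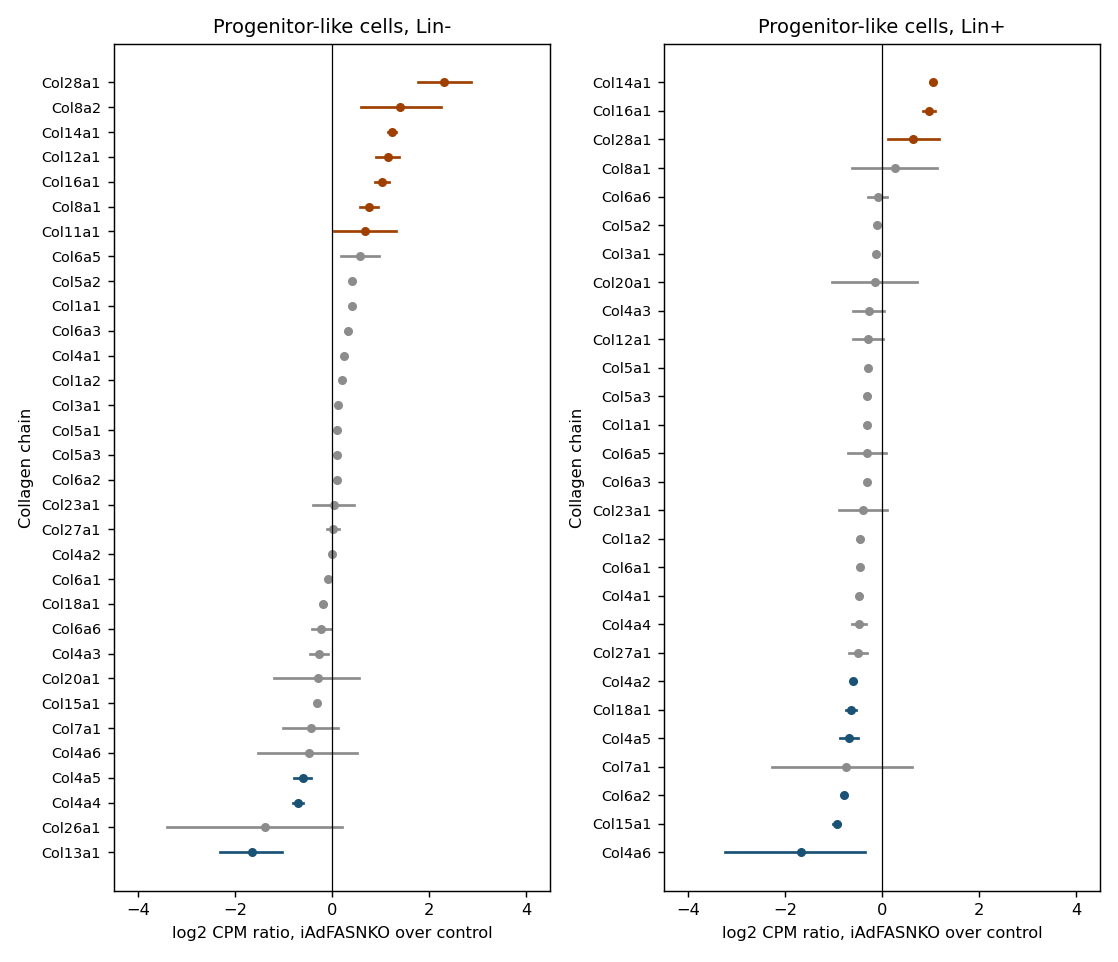
Log2 CPM ratio, iAdFASNKO over control, of each collagen chain in progenitor-like cells of Lin- and of Lin+, with exact intervals that cover counting error only; chains past the size rule are orange where higher and blue where lower. Col14a1 lies at 1.24 and 1.04 and Col16a1 at 1.03 and 0.96, while Col4a5 lies at -0.61 and -0.68.

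In the Lin+ fraction 28 chains could be compared, 3 were higher in iAdFASNKO against 10.2% of all genes and 6 were lower against 4.05%. The median log2 ratio was -0.32, against 0.12 over all genes, and 24 of 28 ratios were below 1. Col14a1 stood at 324 CPM in control against 667 in iAdFASNKO, a ratio of 2.06 with an interval of 1.99 to 2.14. Its thinned share of cells was 35.8% and 56.9%. Col16a1 stood at 58.3 and 113 CPM, a ratio of 1.94 with an interval of 1.78 to 2.12, and Col28a1 at 4.09 and 6.37 CPM, a ratio of 1.56 with an interval of 1.09 to 2.24. Each of the 3 was higher in both fractions, and Col4a5, at 51.0 and 31.9 CPM in Lin+ with a ratio of 0.624, was the chain lower in both, among 28 compared in both. Col28a1 in Lin+ no longer passed the rule with clusters made without collagen chains, with a looser cell filter, in cells of 4000 to 10000 UMIs or with TMM factors, where its log2 ratio of 0.64 became 0.46 to 0.57. Col4a5 in Lin- no longer passed as a mean of scaled cells, at -0.45 against -0.61, or after free RNA was subtracted, at -0.57.

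The other lower chains of Lin+ were Col4a6 and 4 of the 9 chains that were higher in committed cells. Col15a1 stood at 339 CPM in control against 177 in iAdFASNKO, a ratio of 0.522 with an interval of 0.495 to 0.551. Col6a2 stood at 1162 and 671 CPM, a ratio of 0.577, Col18a1 at 137 and 87.5 CPM, a ratio of 0.640, and Col4a2 at 655 and 434 CPM, a ratio of 0.663. Col4a6 rested on 26 and 6 UMIs, a ratio of 0.313. Committed cells were 274 of 1740 progenitor-like cells in Lin+ control and 72 of 1701 in Lin+ iAdFASNKO. The subsets of iAdFASNKO, with the cells of no subset as a further group, were weighted by the UMI shares of these groups in control. With this mix of control the median log2 ratio was -0.08. The log2 ratio of Col15a1 then went from -0.94 to -0.08, that of Col6a2 from -0.79 to -0.27, that of Col18a1 from -0.64 to -0.35 and that of Col4a2 from -0.59 to 0.09. With that mix, judged by the 1.5-fold ratio alone without an interval, 4 chains were higher against 12.03% of all genes. By the same ratio 3 were lower against 4.502%.

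Within the interstitial and committed subsets of the 2 fractions, Col14a1 and Col16a1 each were higher in iAdFASNKO in 3 of 4 comparisons, but neither was higher in the CD142 subset of either fraction. In Lin+ interstitial cells 24 chains gave 3 higher against 9.14% of all genes and 2 lower against 3.29%. The ratio of Col14a1 was 1.73 with an interval of 1.66 to 1.81, and that of Col16a1 was 1.79. In Lin+ committed cells 21 chains gave 1 higher against 5.92% and 3 lower against 3.12%, with Col16a1 at 2.09 and Col14a1 at 1.37, whose interval of 0.880 to 2.06 included 1. The lower chains there were Col4a4 at 0.442, Col4a5 at 0.416 and Col18a1, from 72 iAdFASNKO cells.

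In Lin- committed cells 29 chains gave 4 higher against 6.93% and 5 lower against 7.22%. Col14a1 stood at 42.0 CPM in control against 89.7 in iAdFASNKO there, a ratio of 2.14, and Col16a1 at 25.3 and 57.1 CPM, a ratio of 2.26. Col28a1 had 6 UMIs in control and 70 in iAdFASNKO, and Col12a1 was the fourth higher chain. Col4a4 at 0.596 and Col4a5 at 0.504 were among the 5 lower, with Col13a1, Col6a6 and Col7a1. In Lin- interstitial cells 21 chains gave 11 higher against 6.63% and 0 lower against 7.51%, with a median log2 ratio of 0.63. The 11 took in the abundant Col3a1 at 2.56, Col1a1 at 1.72 and Col4a1 at 3.06, and Col14a1 at 1.55. That comparison is of 136 cells with 55. The collagen share of the summed UMIs of these cells was 4.03% against 2.10%, but their median over single cells was 2.20% against 1.55%. Their summed interstitial markers were 2722 CPM in iAdFASNKO against 4749 in control, so the subset was less sharply marked in iAdFASNKO; the part of this in the ratios was not tested. In Lin- CD142 cells 24 chains gave 4 higher against 4.72%, which were Col5a1, Col5a2, Col8a1 and Col12a1, and 0 lower against 6.84%. Col14a1 stood at 352 CPM in control and 380 in iAdFASNKO there, and Col16a1 at 130 and 132 CPM. In Lin+ CD142 cells, 138 in control and 114 in iAdFASNKO, 18 chains gave 0 higher against 6.14% and 2 lower against 3.49%. The lower chains were Col6a2, with a ratio of 0.657, and Col14a1, which stood at 230 CPM from 161 UMIs in control and 45.5 from 26 UMIs in iAdFASNKO. This Col14a1 ratio of 0.198, with an interval of 0.126 to 0.301, ran against that of the progenitor-like cells as a whole, and 27 of the control UMIs came from 1 cell.

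In mural-like cells of Lin- few chains passed the rule between genotypes. Of 25 chains 2 were higher in iAdFASNKO against 2.21% of all genes and 1 was lower against 6.87%, with a median log2 ratio of 0.00 against -0.08 over all genes. Col13a1 rested on 3 control and 26 iAdFASNKO UMIs, with a ratio of 4.63 and an interval of 1.42 to 23.9. Its log2 ratio of 2.21 became 1.09 with clusters made without collagen chains and 0.38 with a looser cell filter, and it passed the rule under neither. Col14a1 had 19 and 65 UMIs, a ratio of 1.83 with an interval of 1.08 to 3.23. It passed the rule with the Lin+ free RNA level subtracted, but not with a stricter cell filter or in cells of 4000 to 10000 UMIs. Macrophage-like cells of Lin+ held 6.49 and 24.6 CPM of Col14a1, from 3 and 6 UMIs, and free RNA of Lin- was not tested in this ratio. Col6a5 had 14 and 10 UMIs, a ratio of 0.381 with an interval of 0.152 to 0.923. The levels of Col4a1, Col4a2 and Col18a1 in these cells were close in the 2 libraries. Col4a1 stood at 630 and 735 CPM, Col4a2 at 331 and 376 and Col18a1 at 304 in both. Col4a1 and Col4a2 were among the chains lower in mural-like than in progenitor-like cells of both libraries. The contractile subset, of 226 and 801 cells, gave 3 higher against 2.53% and 0 lower against 5.91% of 21 chains, namely Col13a1, Col1a1 and Col14a1. Its Col1a1, at 59.2 and 105 CPM, is among the low values that cannot be told apart from free RNA.

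Endothelial-like and Schwann-like cells were few. In Lin- endothelial-like cells, 26 in control and 98 in iAdFASNKO, 9 chains gave 1 higher against 6.2% and 3 lower against 6.82%. The lower chains were Col18a1 at 332 and 106 CPM, a ratio of 0.320, Col4a1 at 234 and 60.5 CPM, a ratio of 0.259, and Col4a2 at 120 and 45.8 CPM, a ratio of 0.383. A single control cell held 37 of 61, 33 of 43 and 16 of 22 UMIs of these chains, and without the top cells the ratios were 0.744, 0.741 and 0.955. The higher chain was Col15a1 with 3 and 33 UMIs, of which 17 came from 1 cell. Its log2 ratio of 1.89 became 0.23, and no longer passed, with clusters made without collagen chains. Without the barcodes that libraries share, 7 chains gave 0 higher against 7.18% and 3 lower against 6.89%. In Schwann-like cells, 71 and 191, 17 chains gave 3 higher against 3.21% and 0 lower against 4.93%. They were Col5a2 with a ratio of 1.67, Col27a1 with 1.86 and Col16a1 with 3.01, the last from 4 and 20 UMIs.

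In Lin+ T-cell-like and B-cell-like cells the level of free RNA differed between the genotypes as well. In Lin+ T-cell-like cells 11 chains gave 0 higher in iAdFASNKO against 2.75% and 7 lower against 7.67%, with a median log2 ratio of -1.31. In Lin+ B-cell-like cells 12 chains gave 0 higher against 1.91% and 9 lower against 3.16%, with a median of -1.19. The collagen share of natural-killer-like cells of Lin+ was 0.0329% in control and 0.0289% in iAdFASNKO. In T-cell-like cells of Lin- it was 0.0379% and 0.0361%, from 30 and 48 UMIs. The summed Lin+ T-cell-like and B-cell-like level of each genotype was subtracted from its progenitor-like cells of both fractions. In Lin+ this left 3 higher chains against 7.9% of all genes and 5 lower against 4.25%. In Lin- it left 7 higher against 7.565% and 2 lower against 6.58%, by a level not measured in Lin-.

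The 54 genes that process, assemble, bind or sense collagen were counted with the same rule. In Lin- progenitor-like cells 51 could be compared, 8 were higher in iAdFASNKO against 8.87% of all genes and 6 were lower against 5.86%, with a median log2 ratio of -0.02. Among the hydroxylases P4ha3, a prolyl hydroxylase subunit, stood at 1.66 CPM in control against 7.81 in iAdFASNKO, a ratio of 4.70, and Plod2, the lysyl hydroxylase that acts on telopeptides, at 66.2 and 121 CPM, a ratio of 1.83. P3h3, a prolyl hydroxylase family member, was lower, with a ratio of 0.661. Among proteins that remove propeptides or help in it Pcolce, the enhancer of procollagen C-proteinase, stood at 1077 and 658 CPM, a ratio of 0.611, while the propeptidases Adamts3, from 12 and 16 UMIs, and Adamts14 had ratios of 2.29 and 1.78. Among fibril-binding proteins Fn1, fibronectin, stood at 353 and 660 CPM, a ratio of 1.87, while the small proteoglycans Dcn, also a marker of the class here, and Bgn had ratios of 0.627 and 0.660, and Prelp of 0.5504. Among receptors the integrin genes Itga2, Itga10 and Itgb1 had ratios of 3.80, 2.48 and 1.61, and the collagen receptor kinase Ddr1 of 0.622. None of the 8 export and folding genes or the 5 cross-linking genes passed.

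In Lin+ progenitor-like cells 50 of these genes could be compared, 5 were higher against 10.2% of all genes and 3 were lower against 4.05%, with a median log2 ratio of 0.02. The count of higher genes was thus at the share of all genes. P4ha3 had a ratio of 3.51 and Itga2 of 2.03, and both were also higher in Lin-. Colgalt2, Loxl4 and Itga11 were the other higher genes. The lower genes were Sparc, a collagen-binding matricellular protein, at 11463 and 5512 CPM, Lox, the cross-linking lysyl oxidase, at 186 and 75.1 CPM, and Pcolce at 986 and 643 CPM. Between subsets Plod1, Plod2, Lox, Lum, Mrc2 and Ctsk were higher in committed than in interstitial cells of all 4 libraries, and Pcolce2, Fn1 and Itga11 were lower. Lox stood at 59.2 CPM in interstitial and 423 in committed cells of Lin+ control, and Fn1 at 4328 and 461 CPM.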

How the data were processed

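Single-cell RNA was counted in 4 libraries, 1 for each genotype and lineage fraction. The authors deposited UMI counts per gene and barcode in 2 matrices, 1 for each genotype, with barcode tags for the fraction; per the submitters' processing notes the tools were Cell Ranger 3.1.0 and Seurat 3.0 and the build mm10, and software version 3.0.2 stands in the matrix header, per the file headers. Cells needed 300 genes, 500 UMIs and a mitochondrial share of no more than 10%, and doublets called by Scrublet (scanpy 1.11.5) were removed, 0.935% to 2.22% of cells per library. A cell joined a class when at least 3 markers had a UMI and every other class had at most 0.5 of its share of markers. Of 14701 cells 12772 joined a class. Counts were summed per class and library and scaled to CPM. Poisson, binomial and conditional binomial intervals (scipy 1.17.1) cover counting error only. The size rule (at least 20 UMIs over both libraries, 1.5-fold, an interval without 1) was run on all genes, and its script was checked on simulated data. The 10 chains with most UMIs, chains past the rule between genotypes and chains that led a class were named. The Lin+ CD142 comparison was added after the other values were seen. Alternatives included other filters, clusters, thresholds and TMM factors (edgeR 4.0.16). Total counts per library limit a CPM to about the intervals given. The members and gene lists were chosen with earlier results of these data known.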

Additional observations from a re-analysis of the deposited data

Results flagged for a closer look

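In 7 chains the genotype ratio, iAdFASNKO over control, passed the size rule in opposite directions in different cells, and no difference between those cells was tested, since each group was 1 library. The same count was not made over all genes, so 7 is not read as a trait of the collagen chains. The groups of cells also overlap, since subsets are parts of their classes.

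Col14a1 had ratios of 2.35 in Lin- and 2.06 in Lin+ progenitor-like cells, 1.55 in Lin- interstitial, 2.14 in Lin- committed and 1.73 in Lin+ interstitial cells, and 1.83 in mural-like cells and in their contractile subset. The mural-like value rested on few UMIs, and free RNA of Lin- was not tested in it. In Lin+ CD142 cells Col14a1 had a ratio of 0.198. Col12a1 had 2.21 in Lin- progenitor-like, 2.43 in Lin- committed and 7.19 in Lin- CD142 cells, the last from 3 control UMIs, and 0.626 in Lin+ interstitial cells.

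Col15a1 had 0.522 in Lin+ progenitor-like and 3.71 in Lin- endothelial-like cells, where control had 3 UMIs and the log2 ratio of 1.89 became 0.23 with clusters made without collagen chains. Col13a1 had 0.32 in Lin- progenitor-like and 0.273 in Lin- committed cells, and 4.63 in mural-like and 6.33 in contractile cells. The mural-like log2 ratio of 2.21 became 1.09 with those clusters and 0.38 with a looser cell filter, both without passing the rule.

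Col4a1 had 0.259 in endothelial-like and 3.06 in Lin- interstitial cells. Col4a2 had 0.663 in Lin+ progenitor-like, 0.383 in endothelial-like and 3.56 in Lin- interstitial cells. Col6a6 had 2.28 in Lin- interstitial and 0.611 in Lin- committed cells.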

How the results depend on the processing

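No paired analysis was possible because each group was 1 library, and for the same reason no replicate could be left out. The median log2 ratio in Lin- progenitor-like cells, 0.10, was 0.06 with clusters made without collagen chains, 0.05 as a mean of scaled cells, 0.04 with TMM factors, 0.17 in cells of 4000 to 10000 UMIs and 0.14 with the control subset mix; in Lin+ it ran from -0.47 to -0.08. The mural-like median of 0.00 was 0.18 with a looser filter, 0.32 in the depth window, 0.21 without the top cell of each gene and 0.22 after free RNA was subtracted. The endothelial-like median of -0.51 was -1.64 with at least 50 UMIs and 0.24 with clusters. The collagen share of Lin- control, 5.01%, was 4.97% with clusters, 4.96% with the stricter filter, 4.94% without shared barcodes, 4.56% in the depth window, 4.78% as a mean of cells and 4.97% after free RNA was subtracted. That of Lin- iAdFASNKO, 5.71%, was 5.51%, 5.69%, 5.63%, 5.23% and 5.69% with clusters, without shared barcodes, in the depth window, as a mean of cells and after free RNA was subtracted. Among the values for named chains 363 kept their direction and side of the size rule, 50 no longer passed it, and 4 turned: Col12a1 to -0.38 and Col8a1 to -0.36 in the Lin- depth window, Col4a2 to 0.09 in Lin+ with the control subset mix, and Col4a2 to 0.06 in endothelial-like cells as a mean of scaled cells. The cause was not tested. Counts of higher and lower chains became 3 and 4 in the Lin- depth window, against 4.49% and 8.46% of all genes. They became 5 and 1 in Lin- at a ratio of 2, against 4.57% and 2.015%. With the subset mix they became 8 and 5 in Lin-, against 10.5% and 7.74%. The subset mix and the mean of scaled cells were judged by the ratio alone, without an interval. In Lin+ the counts became 1 and 1 at a ratio of 2, against 4.42% and 1.94%. As a mean of scaled cells they became 3 and 10, against 14.6% and 7.53%. With TMM factors they became 2 and 11, against 6.4% and 6.265%. With clusters the counts became 1 and 5 in mural-like cells, against 2.14% and 8.28%. In endothelial-like cells they became 4 and 1 with clusters, against 4.53% and 6.1%. Without the top cell they became 0 and 0 in endothelial-like cells, against 13.99% and 2.29%. The shared-barcode, depth-window and subset-mix alternatives were chosen after seeing the data. Depth limits chains under 20 UMIs, which were not compared.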
